A study of Mus musculus with 12 samples.

Results

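Toll-like receptors (TLRs) other than TLR4 were read in Sp37A3 cells, an immature dendritic cell (DC) line derived from mouse spleen. The 10 receptors are the listed genes Tlr1, Tlr2 and Tlr6, whose proteins act at the cell surface, and Tlr3, Tlr7, Tlr8, Tlr9, Tlr11, Tlr12 and Tlr13, whose proteins act in endosomes. Each of the 10 was 1 row among the 55401 genes in the table of counts. Lists of genes that deliver the receptors, bind them or signal below them were read beside them.

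RNA was sequenced from 12 libraries, 3 in each of 4 groups. CtrV cells carried an empty lentiviral CRISPR vector and were labelled as expressing Siglec-E, and EKO cells carried the vector with a guide against Siglece and were labelled as its knockout. The EKO line was a pool of several sorted clones, so cells of that line can differ from CtrV cells in more than the edited gene. Cells of each line were either pulsed with ovalbumin (OVA) or left unpulsed, and all 4 groups were stimulated with lipopolysaccharide (LPS) for 24 h and grown with GM-CSF and M-CSF. No group went without LPS, so none of the levels below is that of a resting cell. The sources do not say that libraries of a group came from separate cultures, and p-values therefore measure the spread between these libraries.

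A TLR joins a leucine-rich-repeat domain that binds microbial ligands to an intracellular TIR domain that recruits adaptors. The surface receptors recognize lipids and lipopeptides of microbial envelopes, with TLR2 working as a heterodimer with TLR1 or TLR6. The endosomal receptors mostly recognize nucleic acids, need the chaperone UNC93B1 to leave the endoplasmic reticulum, and several are cleaved by lysosomal proteases before they signal. In mouse DCs the set of TLRs differs between subsets, and TLR11 and TLR12, which recognize parasite profilin, and TLR13, which recognizes bacterial ribosomal RNA, have no working counterpart in humans.

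The gene models were those of GENCODE on GRCm38, the build also called mm10. Among the surface receptors, Tlr2 lies at chr3:83836272-83841767 on the minus strand, and Tlr1 and Tlr6 lie close to each other on chromosome 5, at chr5:64924679-64933563 and chr5:64952031-64960097, both on the minus strand. Tlr9 lies at chr9:106222598-106226883 on the plus strand, Tlr3 at chr8:45395665-45411080 on the minus strand and Tlr11 at chr14:50357914-50363663 on the plus strand. Tlr13 (chrX:106143204-106160493, plus strand), Tlr7 (chrX:167304929-167330558, minus strand) and Tlr8 (chrX:167242696-167264329, minus strand) share the X chromosome. Tlr12 lies at chr4:128615443-128618619 on the minus strand. Exons of Tlr3 overlap Gm45542 on the other strand over 7.32% of their bases. Gm45542 itself had between 0 and 2 counts in every library, and whether strand was used in counting is not given in the sources used here.

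Promoter windows of RefSeq (GRCm38.p6, 250 bases before to 50 after a gene's start) were found for 9 of the 10 receptors, in 11 windows. Those of Tlr2 and Tlr9 are shown because both genes differed between the lines with and without OVA, that of Tlr3 because its level differed most between libraries of one group, and that of Tlr11 because it differed in unpulsed cells. Each reads 5′ to 3′ on the gene's own strand, and capitals mark every match to 4 motifs searched on both strands.
Tlr2 spans chr3:83841559-83841858 on the minus strand and held no match.
Tlr2: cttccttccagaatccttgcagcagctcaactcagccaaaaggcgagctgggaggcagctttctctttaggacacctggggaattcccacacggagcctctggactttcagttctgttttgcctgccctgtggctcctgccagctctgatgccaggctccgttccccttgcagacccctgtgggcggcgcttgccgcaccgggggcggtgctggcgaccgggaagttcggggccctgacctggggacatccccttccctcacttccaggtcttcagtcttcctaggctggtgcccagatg
Tlr9 spans chr9:106222348-106222647 on the plus strand and held the PU.1 core GAGGAA on both strands.
Tlr9: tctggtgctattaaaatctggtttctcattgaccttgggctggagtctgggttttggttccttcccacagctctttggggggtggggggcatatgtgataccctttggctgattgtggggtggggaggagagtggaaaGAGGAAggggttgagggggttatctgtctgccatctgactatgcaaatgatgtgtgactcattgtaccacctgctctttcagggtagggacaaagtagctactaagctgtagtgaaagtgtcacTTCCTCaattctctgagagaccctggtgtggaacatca
Tlr3 spans chr8:45410331-45410630 on the minus strand and held 1 match to the kappaB-like pattern GGGNNTTTC.
Tlr3: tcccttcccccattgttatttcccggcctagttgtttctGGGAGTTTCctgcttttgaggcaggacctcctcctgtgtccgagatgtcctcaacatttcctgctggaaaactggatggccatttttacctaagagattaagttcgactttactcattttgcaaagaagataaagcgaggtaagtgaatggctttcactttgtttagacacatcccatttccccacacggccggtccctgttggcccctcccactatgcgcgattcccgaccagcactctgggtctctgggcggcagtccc
Tlr11 spans chr14:50357664-50357963 on the plus strand and held 1 match to the interferon-response pattern GAAANNGAA and, apart from it, matches to the PU.1 core.
Tlr11: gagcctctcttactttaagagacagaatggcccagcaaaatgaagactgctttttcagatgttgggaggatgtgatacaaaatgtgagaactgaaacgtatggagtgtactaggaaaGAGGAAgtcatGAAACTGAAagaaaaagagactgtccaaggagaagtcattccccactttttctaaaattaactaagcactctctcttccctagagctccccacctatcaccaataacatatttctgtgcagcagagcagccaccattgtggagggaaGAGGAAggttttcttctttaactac

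Of 32851 mouse promoter windows of this length, 8.56% held GAAANNGAA, 4.36% held GGGNNTTTC, 28.3% held GAGGAA and 13.6% held TATAAA, the fourth motif. The window of Tlr13 and a window of Tlr1 also held a PU.1 core. That of Tlr8 held GAAANNGAA, a PU.1 core and TATAAA. The windows of Tlr6 held GAAANNGAA and TATAAA, and that of Tlr12 held none of the 4. No matches of different motifs overlapped in the windows shown. A match describes the letters in the window and is not a measured binding site.

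Library totals lay between 27116201 and 39698572 counts. Levels are given as CPM, the count relative to a library size that was scaled by the trimmed mean of M-values (TMM). A floor of 3 counts, under which a gene was treated as not seen, came to between 0.0784 and 0.110 CPM depending on the library and covers counting error only. The targeted gene Siglece was not lower in any EKO library. It had between 150.015 and 163 CPM in CtrV libraries and between 166 and 235 CPM in EKO libraries. The paper reports minimal or no Siglec-E on the clones that were pooled. The level of RNA does not measure loss of the protein, and cells are called EKO after their label. Replicate 1 of the EKO line stood apart, with second principal component values of 19.1 and 20.9 in unpulsed and OVA-pulsed cells against at most -0.968 in the other EKO libraries. Fold changes of the tested receptors between the lines are given with and without replicate 1 of all groups, and those of other genes with all libraries.

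The labelled cell type was read from its markers. All 5 DC markers (Itgax, Flt3, Zbtb46, H2-Ab1 and Ptprc) were above the floor in every library. They summed to 4168 to 4411 CPM in CtrV and 5424 to 5663 CPM in EKO libraries. With OVA, Flt3, H2-Ab1 and Ptprc rose in EKO cells, with log2 fold changes of 1.74, 0.52 and 0.32. Itgax fell there, at -0.27, and Zbtb46, at -0.11, did not pass. Without OVA, Flt3 was at 0.92 and did not pass. The cDC1 markers Clec9a and Cadm1 had at most 1 count in a library, and neutrophil markers had none. The 5 cDC1 markers summed to 82.5 to 110.4 CPM in CtrV and 8.16 to 17.1 CPM in EKO libraries, where Itgae fell, with a log2 fold change of -5.99 with OVA, and Batf3 and Xcr1 rose, at 1.67 and 1.47. The 5 cDC2 markers summed to 931 to 994 CPM in CtrV and 780.1 to 913 CPM in EKO libraries, where Clec10a and Mgl2 fell, at -0.47 and -0.41 with OVA, and Cd209a rose, at 2.00. Among macrophage markers, C1qa and Fcgr1 rose in EKO cells in both comparisons, with log2 fold changes of 1.04 and 1.13 with OVA and 1.05 and 1.32 without, while Adgre1 was at -0.03 with OVA and did not pass. The 4 T cell markers summed to at most 0.141 CPM in CtrV and 0.641 CPM in EKO libraries, with no count of Cd3e or Cd3g. The 4 B cell markers summed to at most 0.282 CPM in CtrV and to between 0.546 and 1.07 CPM in EKO libraries. Of the 5 plasmacytoid DC markers, Ly6d had no count in any library, and their sum did not exceed 0.829 CPM. The part of these markers in the differences of the receptors between the lines was not tested. In bulk RNA, fewer cells of a type and less RNA per cell cannot be told apart.

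Of the 10 receptors, 5 were above the filter of a log2 CPM over 0 in at least 2 libraries, namely Tlr2 at the surface and Tlr3, Tlr9, Tlr11 and Tlr13 in endosomes. All 5 were above the floor in every library of both lines. Levels of different genes were compared as CPM per kilobase of exon. In unpulsed CtrV cells Tlr13 was highest at 35.6 CPM per kb (range 33.1 to 37.8 over 3 libraries), followed by Tlr9 at 16.5 (13.2 to 19.0). Tlr3 at 9.24 (8.46 to 9.64) and Tlr2 at 8.46 (8.03 to 9.31) overlapped between libraries, though Tlr3 was above Tlr2 within each library. Tlr11 followed at 1.27 (1.12 to 1.37). The same 5 genes held the same order of means in OVA-pulsed CtrV cells, with Tlr3 and Tlr2 again overlapping. Within these OVA-pulsed libraries Tlr2 was above Tlr3 in replicate 1 only, at 10.1 against 9.80.

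The order changed in EKO cells. Without OVA, Tlr13 at 35.5 CPM per kb (35.3 to 35.7) was just above Tlr9 at 32.1 (27.3 to 35.3), and Tlr2 at 18.1 (12.4 to 21.8) stood above Tlr3 at 10.3 (5.44 to 13.1), with ranges that overlapped for Tlr2 and Tlr3. With OVA, Tlr13 at 33.8 (32.1 to 35.8) and Tlr9 at 30.9 (29.6 to 32.5) overlapped. There Tlr2 at 16.0 (14.2 to 17.2) and Tlr3 at 8.96 (5.91 to 10.7) did not overlap. Within each single EKO library, with or without OVA, Tlr2 was above Tlr3 and Tlr13 was above Tlr9. The plot of levels per length shows Tlr9 approaching Tlr13 and Tlr2 passing Tlr3 in EKO cells. With the longest transcript in place of the union of exons, Tlr3 and Tlr2 no longer overlapped in CtrV cells, with Tlr3 at 10.9 and Tlr2 at 8.46 CPM per kb without OVA, and neither did Tlr13 and Tlr9 in OVA-pulsed EKO cells, at 35.8 and 30.9 CPM per kb.

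**Figure D1:**
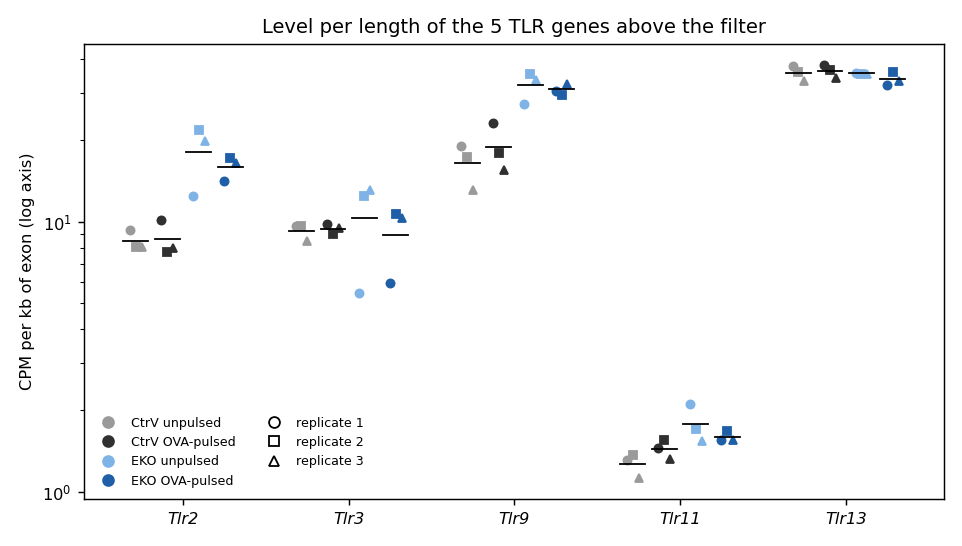
Levels of the 5 TLR genes above the expression filter, in CPM per kb of exon on a log axis, for 12 libraries in 4 groups (marker shape gives the replicate number, and the black line is the mean of 3 libraries). Tlr13 lies between 32.1 and 38.2 in every library, Tlr2 and Tlr9 are higher in EKO than in CtrV libraries, and the lowest Tlr3 values are those of EKO replicate 1.

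Summed over the surface genes Tlr1, Tlr2 and Tlr6, the level was 7.75 to 10.2 CPM per kb in CtrV libraries and 12.6 to 21.9 in EKO libraries. Over the 7 endosomal genes it was 55.9 to 72.7 in CtrV and 70.2 to 84.9 in EKO libraries. The surface share of the summed level of the 10 listed genes was therefore 10.6% to 12.6% in CtrV and 15.1% to 20.5% in EKO libraries. Tlr2 made up nearly all of the surface sum, so this share follows that 1 gene and was not tested. The surface receptor genes Tlr4 and Tlr5 are outside these sums. Tlr4 had 5.61 to 7.57 CPM per kb in CtrV and 13.3 to 20.2 in EKO libraries.

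The comparison of EKO with CtrV cells addresses how DC activation differs when Siglec-E, an inhibitory receptor, is targeted. In OVA-pulsed cells 2 of the 5 tested receptors rose, Tlr2 and Tlr9, and none fell, at a Benjamini-Hochberg adjusted p under 0.05 in the edgeR quasi-likelihood test. Of all 14079 genes tested, 47.0% passed in this comparison. In unpulsed cells 3 of the 5 rose, Tlr2, Tlr9 and Tlr11, where 46.4% of all genes passed. The share of receptors that passed was thus near the share of all genes. The median log2 fold change of the 5 was 0.15 with OVA and 0.49 without, against 0.00064 and 0.00013 over all genes.

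Tlr2, the shared subunit of the lipopeptide receptors, had 28.1, 24.2 and 24.2 CPM in unpulsed CtrV replicates 1, 2 and 3. In the unpulsed EKO replicates it had 37.5, 65.7 and 60.2 CPM. With OVA it had 30.5, 23.3 and 24.1 CPM in CtrV cells and 42.8, 51.9 and 49.6 CPM in EKO cells. Every EKO library was above every CtrV library, and EKO replicate 1 was the lowest of its group in both states. The log2 fold change was 0.87 with OVA (standard error 0.18, adjusted p = 0.00279, edgeR quasi-likelihood test, Benjamini-Hochberg adjusted) and 1.08 without (standard error 0.19, adjusted p = 0.000814). Without replicate 1 the log2 fold changes were 1.10 and 1.38. Without replicate 3 that in OVA-pulsed cells was 0.80 and no longer passed in the same edgeR test (adjusted p = 0.0576).

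Tlr9, the endosomal sensor of unmethylated CpG DNA, had 66.1, 60.6 and 45.7 CPM in unpulsed CtrV replicates 1, 2 and 3 and 95.1, 123 and 117 CPM in unpulsed EKO replicates. With OVA it had 80.6, 62.5 and 54.2 CPM in CtrV cells and 106, 103 and 113 CPM in EKO cells. No EKO library overlapped a CtrV library. In CtrV cells replicate 1 was the highest and replicate 3 the lowest in both states. The log2 fold change was 0.72 with OVA (standard error 0.15, adjusted p = 0.00278, edgeR quasi-likelihood test, Benjamini-Hochberg adjusted) and 0.97 without (standard error 0.15, adjusted p = 0.000456). Without replicate 1 these were 0.90 and 1.18, and the gene passed in every alternative run without a limit on the fold change. Its promoter window, shown above, holds PU.1 cores at -112 and 13 from the start.

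Tlr11, a profilin receptor that was the least abundant of the 5, had 4.30, 4.47 and 3.67 CPM in unpulsed CtrV replicates 1, 2 and 3 and 6.92, 5.60 and 5.04 CPM in unpulsed EKO replicates. With OVA the values were 4.75, 5.07 and 4.34 CPM in CtrV cells and 5.09, 5.49 and 5.10 CPM in EKO cells. The groups did not overlap in either state, but with OVA the lowest EKO library lay only just above the highest CtrV library. The log2 fold change was 0.49 without OVA (standard error 0.11, adjusted p = 0.00349, edgeR quasi-likelihood test, Benjamini-Hochberg adjusted) and did not pass with OVA, at 0.15 (standard error 0.10, adjusted p = 0.262). Without replicate 1 the log2 fold changes were 0.39 without OVA (adjusted p = 0.0252 in the same edgeR test) and 0.17 with OVA. The change of this difference with pulsing, tested on its own, was -0.34 on the log2 scale (standard error 0.15) and did not pass, with an adjusted p of 1 and an unadjusted p of 0.0426 in the same edgeR fit. Raw counts of Tlr11 were between 107 and 195 per library.

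**Figure D2:**
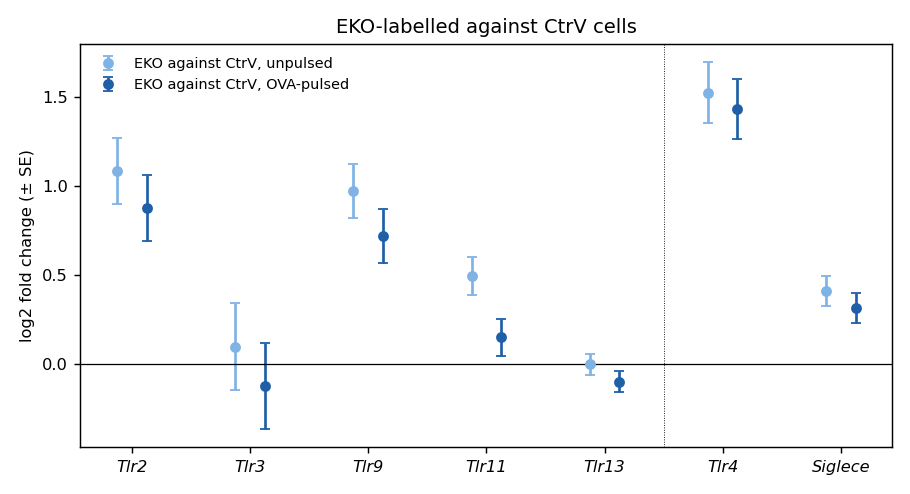
log2 fold changes (± SE) of EKO-labelled against CtrV cells from edgeR, without and with OVA, for the 5 tested receptors and, right of the dotted line, Tlr4 and the targeted gene Siglece. Tlr2 at 1.08 and 0.87 and Tlr9 at 0.97 and 0.72 lie above 0 in both states, Tlr13 lies at -0.00 and -0.10, and Tlr3 has the widest errors.

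Tlr13 and Tlr3 did not pass in either comparison. Tlr13, the most abundant receptor, had 163, 154 and 142 CPM in unpulsed CtrV replicates 1, 2 and 3 and 153, 152 and 152 CPM in unpulsed EKO replicates. With OVA it had 164, 157 and 147 CPM in CtrV cells and 138, 154 and 144 CPM in EKO cells. The groups overlapped in both states. Its log2 fold change was -0.10 with OVA (standard error 0.06, adjusted p = 0.172, edgeR quasi-likelihood test, Benjamini-Hochberg adjusted) and -0.0037 without (standard error 0.06, adjusted p = 0.965). These standard errors were the smallest among the 5 receptors. Without replicate 1 the values were -0.03 and 0.04.

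Tlr3, the endosomal sensor of double-stranded RNA, was even across CtrV cells and uneven across EKO cells. It had 50.2, 50.2 and 44.1 CPM in unpulsed CtrV replicates 1, 2 and 3, and 51.0, 46.9 and 49.2 CPM in OVA-pulsed ones. In unpulsed EKO replicates it had 28.3, 64.9 and 68.1 CPM. In OVA-pulsed EKO replicates the values were 30.8, 55.5 and 53.6 CPM. EKO replicate 1 was thus below every CtrV library in both states, and EKO replicates 2 and 3 were above every CtrV library in both. The mean was 48.1 ± 3.53 CPM (SD, n = 3) in unpulsed CtrV and 53.8 ± 22.1 CPM in unpulsed EKO cells.

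Over all libraries the log2 fold change of Tlr3 was -0.13 with OVA (standard error 0.24, adjusted p = 0.693, edgeR quasi-likelihood test, Benjamini-Hochberg adjusted) and 0.10 without (standard error 0.24, adjusted p = 0.771). Set against the CtrV library of the same number, EKO replicate 1 differed by -0.82 on the log2 scale without OVA, while replicates 2 and 3 differed by 0.37 and 0.63. With OVA these differences were -0.73, 0.25 and 0.13. Leaving out replicate 1 of all groups turned the value in OVA-pulsed cells to 0.19 (adjusted p = 0.0729) and raised that in unpulsed cells to 0.50, which passed (adjusted p = 0.000469 in the same edgeR test). Leaving out only the unpulsed EKO replicate 1 gave 0.40 in unpulsed cells, which did not pass (adjusted p = 0.119).

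The other receptors also differed between replicate numbers, as the plot of differences by replicate shows. For Tlr2 the difference was 0.42 in replicate 1 and 1.44 and 1.31 in replicates 2 and 3 without OVA, and 0.49, 1.15 and 1.04 with OVA. For Tlr9 it was 0.52, 1.02 and 1.35 without OVA and 0.40, 0.72 and 1.06 with OVA. Replicate 1 thus gave the smallest difference for Tlr2 and Tlr9 in both states, and for Tlr3 the only negative one. For Tlr11 it gave the largest without OVA, 0.68, and the smallest with OVA, 0.10.

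**Figure D3:**
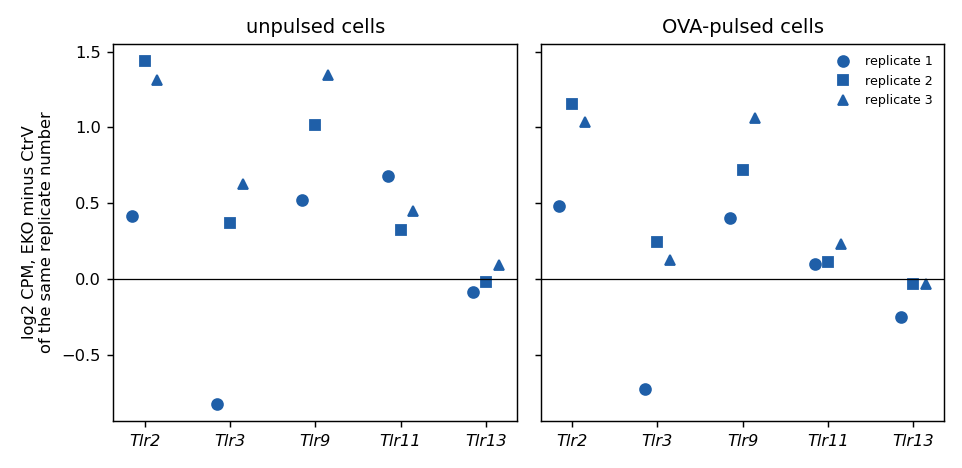
Difference in log2 CPM between the EKO and the CtrV library of the same replicate number, for the 5 tested receptors in unpulsed and OVA-pulsed cells. Tlr2, Tlr9 and Tlr11 lie above 0 for each number, while Tlr3 lies at -0.82 and -0.73 in replicate 1 and above 0 in replicates 2 and 3.

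OVA pulsing was read as a comparison of its own. None of the 5 tested receptors differed between OVA-pulsed and unpulsed cells, averaged over both lines, and neither did any other gene: 0 of 14079 passed, or 0%, in the edgeR quasi-likelihood test, with 314 genes at an unadjusted p under 0.05 and 0 calls by DESeq2 and by limma voom. The log2 fold changes were -0.07 for Tlr2, -0.08 for Tlr3, 0.07 for Tlr9, 0.01 for Tlr11 and -0.02 for Tlr13, with standard errors between 0.04 and 0.17. The dependence of the line difference on pulsing also gave 0 calls among all genes, with 269 at an unadjusted p under 0.05 in edgeR and 0 calls by DESeq2 and limma voom. Without replicate 1 of all groups 5 genes passed in edgeR, none of them a receptor. With all libraries this dependence lay between -0.34 (Tlr11) and -0.10 (Tlr13) for the receptors. All 5 of these estimates were negative, and the same unpulsed and OVA-pulsed libraries entered each of them. With libraries left out, the estimate reached up to 0.04 for Tlr2 and 0.06 for Tlr3.

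The 5 receptors below the filter were read as raw counts. Tlr1, a partner of TLR2 in the recognition of triacyl lipopeptides, had 1, 2 and 2 counts in unpulsed CtrV libraries and 4, 0 and 1 in OVA-pulsed ones. In EKO libraries it had 10, 12 and 16 counts without OVA and 9, 6 and 12 with OVA, so that every EKO library was above every CtrV library. Summed over 6 libraries a line, 65 counts in EKO against 10 in CtrV cells gave a ratio of CPM of 6.28 (95% interval 3.21 to 13.7, exact Poisson, counting error only). In a fit without the filter, Tlr1 passed with a log2 fold change of 2.30 with OVA (standard error 0.65, adjusted p = 0.0103, edgeR quasi-likelihood test, Benjamini-Hochberg adjusted) and 2.76 without (standard error 0.61, adjusted p = 0.00135). Per length, Tlr1 reached at most 0.146 CPM per kb in a library, against at least 7.74 for Tlr2. Of the stretches of 50 bases in its transcripts, 15.4% also occurred in other genes. Of these 513 stretches, 454 occurred in Tlr6 and 59 in genes outside the 10 receptors, so some reads cannot be assigned to 1 gene.

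Tlr6, the partner of TLR2 for diacyl lipopeptides, had 0 or 1 count in every CtrV library and between 0 and 5 in EKO libraries. Its 10 counts in EKO and 4 in CtrV libraries gave a ratio of 2.42 with an interval from 0.697 to 10.6, which includes 1. Of its stretches of 50 bases, 12.3% were shared, nearly all with Tlr1. The share of reads that moved between the pair, or between Tlr1 and genes outside the 10, was not tested.

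Tlr7 and Tlr8, endosomal sensors of single-stranded RNA or its breakdown products, were at or under the floor. Tlr7 had 5 counts in each line over 6 libraries and at most 2 in a library. Tlr8 had 3 counts over the CtrV libraries and 0 over the EKO libraries, where a count of 0 allows up to 0.0784 to 0.110 CPM in a library. Tlr12, which pairs with TLR11 in profilin recognition, had 18 counts over the CtrV and 8 over the EKO libraries, a ratio of 0.430 with an interval from 0.162 to 1.04. Its levels were 3 to 5 counts in OVA-pulsed CtrV libraries and 1, 1 and 2 counts in OVA-pulsed EKO libraries, and overlapped without OVA. In the fit without the filter Tlr6, Tlr7, Tlr8 and Tlr12 did not pass in either comparison, with adjusted p between 0.253 and 1 in the edgeR quasi-likelihood test. No difference was detected in these 4 genes.

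**Figure D4:**
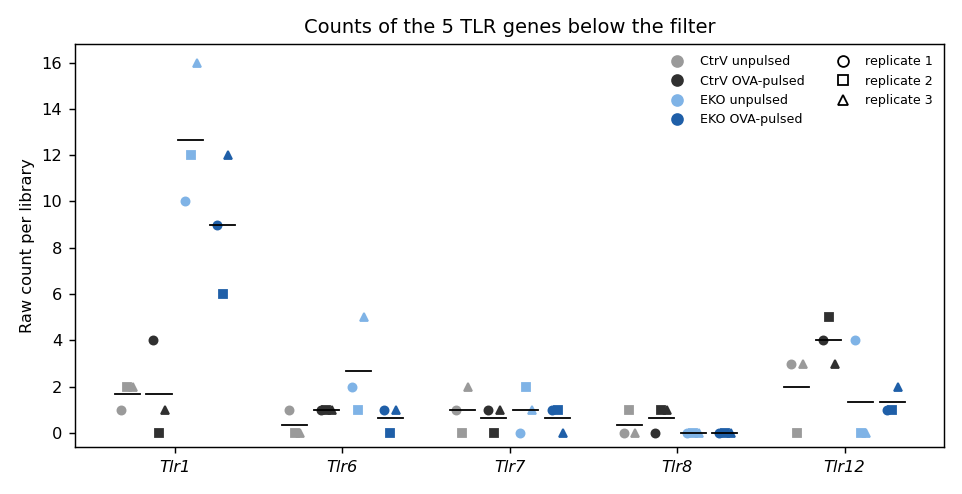
Raw counts per library of the 5 receptors below the expression filter, by group (marker shape gives the replicate number, and the black line is the mean of 3 libraries). Tlr1 has 6 to 16 counts in EKO and 0 to 4 in CtrV libraries, while Tlr6, Tlr7, Tlr8 and Tlr12 have at most 5.

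Genes whose levels followed each receptor most closely over the 12 libraries were found by the root-mean-square (RMS) difference of centred log2 CPM, given as a description. Nearest to Tlr2 were Slc25a22, a mitochondrial glutamate carrier, Trafd1 and the ubiquitin ligase Trim21, at RMS differences of 0.104, 0.105 and 0.108 on the log2 scale against a range of 1.49 for Tlr2. Trim21 had 24.3 to 34.6 CPM in CtrV and 41.0 to 73.5 CPM in EKO libraries. Nearest to Tlr9 were Foxn3, a forkhead factor, 9130208D14Rik and Gm8989, at 0.0837, 0.0927 and 0.0954 against a range of 1.42.

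Nearest to Tlr3 were Iqgap3, a scaffold protein of proliferating cells, Arnt2, a helix-loop-helix factor, and Tpst1, a tyrosine sulfotransferase, at RMS differences of 0.124, 0.141 and 0.151 against a range of 1.26. Iqgap3 had 89.8 and 80.9 CPM in EKO replicate 1 without and with OVA, its 2 lowest values, against 100.3 to 141 CPM in CtrV libraries. Nearest to Tlr11 were Ammecr1, Tcaim and Zfp862-ps, at 0.0947, 0.0963 and 0.103 against a range of 0.90. Nearest to Tlr13 were Paip2b, Seh1l and Lrrc28, at 0.0460, 0.0481 and 0.0493 against a range of 0.25, so that little variation was there to follow.

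The genes that act with the receptors were read as lists. Of the 6 co-receptors and relatives of the surface TLRs, 5 rose and none fell in EKO cells in both comparisons, against 47.0% and 46.4% of all genes that passed in either direction. Their median log2 fold change was 1.68 in both states. Ly86, which encodes MD-1, the partner of CD180, rose by the most, from 0.734 ± 0.105 CPM in OVA-pulsed CtrV to 12.4 ± 1.13 CPM in OVA-pulsed EKO cells (SD, n = 3), or by 4.09 on the log2 scale (standard error 0.17, adjusted p = 4.5e-08, edgeR quasi-likelihood test, Benjamini-Hochberg adjusted). The others that rose were Cd14, which hands ligands to TLR2 and TLR4, at 1.92, Cd36, a scavenger receptor that works with TLR2 and TLR6, at 2.38, Ly96, which encodes MD-2, at 1.17, and Tlr4 at 1.43. Cd180 was at 0.06 and did not pass.

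Of 13 genes that deliver or process the endosomal TLRs, 12 were matched and tested. With OVA, 6 of the 12 rose and 1 fell, and without OVA 6 rose and 2 fell, with medians of 0.20 and 0.19, where 47.0% and 46.4% of all genes passed in either direction. Unc93b1, the chaperone of the endosomal receptors, had 275 ± 18.1 CPM in OVA-pulsed CtrV and 467 ± 44.5 CPM in OVA-pulsed EKO cells (SD, n = 3) and a log2 fold change of 0.75. The 3 genes with the smallest p were the protease gene Ctsl at 1.58, the lysosomal transporter gene Slc15a3 at 0.74 and the protease gene Lgmn at 0.37. Hsp90b1, which encodes the folding chaperone gp96, fell, with a log2 fold change of -0.48 in both states (adjusted p = 0.00018 with OVA, edgeR quasi-likelihood test, Benjamini-Hochberg adjusted).

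Of the 17 adaptors and proximal kinases, 10 rose and 2 fell with OVA, and 9 rose and 2 fell without, with medians of 0.32 and 0.29, beside the same 47.0% and 46.4% of all genes. The smallest p belonged to Peli1, a ubiquitin ligase of the pathway, at 1.52, Ticam2, the adaptor TRAM of TLR4, at 2.26, and Ikbke, a kinase of interferon regulatory factors, at 3.51. Ikbke had 3.16 ± 1.39 CPM in OVA-pulsed CtrV and 36.5 ± 15.2 CPM in OVA-pulsed EKO cells (SD, n = 3). Myd88, the adaptor shared by all TLRs but TLR3, was at 0.17 with OVA (adjusted p = 0.0473) and 0.29 without (adjusted p = 0.00313), and Ticam1, the adaptor TRIF of TLR3 and TLR4, at 0.83 in both states, all in the same edgeR test. Among the IRAK kinases of the MyD88 complex, Irak4 and Irak1 fell, with log2 fold changes of -0.48 and -0.20 with OVA, and Irak2 rose, at 0.57.

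Of the 10 negative regulators, 9 were tested, and 5 rose and 1, Cyld, fell in both comparisons, with medians of 0.45 with OVA and 0.31 without, beside 47.0% and 46.4% of all genes. The smallest p belonged to Irak3, which encodes the inhibitory kinase IRAK-M, at 2.18, Tnfaip3, which encodes A20, at 1.21, and Nfkbia, which encodes the inhibitor of NF-κB, at 1.18. Of the 10 transcription factors below the TLRs, 7 rose with OVA and 6 without, and none fell, with medians of 0.54 and 0.31, again beside 47.0% and 46.4% of all genes. The smallest p belonged to Nfkb1 at 0.83, Rel at 1.09 and Irf8 at 1.35. Irf3 and Irf5 were at -0.04 and -0.09 and did not pass.

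**Figure D5:**
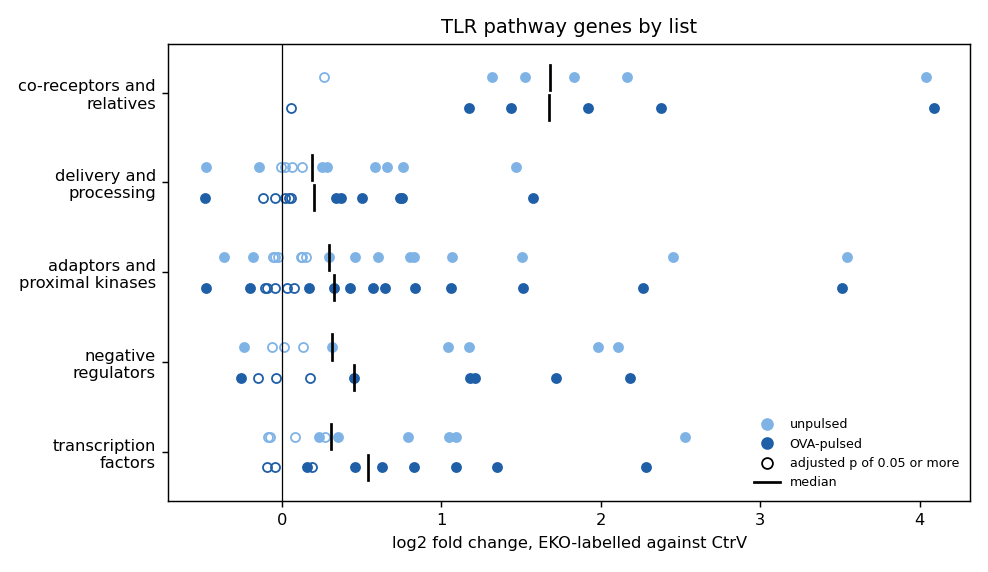
log2 fold changes of EKO-labelled against CtrV cells for the tested genes of 5 TLR pathway lists, without and with OVA. Filled points passed the test, open points did not, and the black line is the list's median, from 0.19 for delivery and processing without OVA to 1.68 for the co-receptors and relatives.

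Tlr5, a surface receptor outside the list of 10 and read after its values had been seen, had between 12.9 and 16.8 CPM in the 12 libraries, and its ranges in the lines overlapped.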

How the data were processed

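The values deposited by the authors were raw read counts per gene, made with STAR (mm10), SAMtools and featureCounts, which took the 5′ end of a read against all exons of a gene. A read that fitted several places equally well was kept at 1 of them, which bears on Tlr1 and Tlr6. Here TMM factors were computed from the 14079 genes with a log2 CPM (prior count 2) above 0 in at least 2 libraries. All 12 libraries were fitted with edgeR 4.0.16 in R 4.3.3, with the group and replicate number as terms, as in the study's methods, and quasi-likelihood tests were adjusted over these genes (Benjamini-Hochberg, threshold 0.05). Same-numbered libraries of the lines deviated together in OVA-pulsed cells (correlations of 0.45, 0.29 and 0.29) but not in each unpulsed pair (0.06, -0.01 and 0.26). Between unpulsed and OVA-pulsed libraries of 1 line and number, correlations were 0.71, 0.35 and 0.41 in EKO and 0.08, 0.18 and 0.37 in CtrV cells. Agreement of an EKO replicate between the states is therefore not 2 separate observations, and the replicate term, shared by both lines, does not model it. The pairing comes from the replicate numbers of the labels. The members and lists were chosen with earlier results of these data known. The text names all 10 receptors, every gene of the pathway list of 6 genes, the 3 genes of smallest p in OVA-pulsed cells in the longer lists and the 3 genes nearest to each tested receptor. Other list genes, such as Unc93b1, Myd88, Ticam1, Irak2 and Hsp90b1, were chosen after their values were seen. Of the delivery list, 1 symbol had no match. The tests across genes were tried on simulated counts of 1 comparison, EKO against CtrV with OVA. No library was left out.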

Additional observations from a re-analysis of the deposited data

How the results depend on the processing

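Alternatives were upper-quartile and RLE normalization, DESeq2 1.42.0, limma voom, bias-adjusted deviances, no filter, at least 10 counts in every library, no replicate block, only the compared libraries, an adjusted p under 0.01, an absolute log2 fold change of at least 1, leaving out each library or each replicate number, and, added after the data were seen, TMM factors from all genes. Leaving aside the limits on adjusted p and fold change, of 490 log2 fold changes of receptors under the other alternatives, 488 kept their side of the threshold, 1 passed newly (Tlr3 in unpulsed cells without replicate 1, at 0.50) and 1 was lost (Tlr2 in OVA-pulsed cells without replicate 3, at 0.80). The count of receptors called in OVA-pulsed cells, 2, was between 1 and 2 with libraries left out and 0 at the limit on fold change. In unpulsed cells the count of 3 was between 3 and 4 with libraries left out and 1 at that limit. The cause was not tested. Over all genes, 4403 to 6993 passed in OVA-pulsed and 4488 to 6476 in unpulsed cells with libraries left out. Without the replicate block the receptor counts were 2 and 3, and no receptor call changed, where 5413 and 5337 of 14079 genes passed. Without the filter the receptor counts were 3 and 4, Tlr1 being added, where 6709 and 6499 of 28881 genes with any count passed. No receptor was called for pulsing or its interaction under any alternative run. Depth limits Tlr1, Tlr6, Tlr7, Tlr8 and Tlr12, at 16 counts or fewer in a library.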
